A study of Mus musculus with 6 samples.

Results

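The Cyp4 genes described here encode cytochrome P450 enzymes that add a hydroxyl group to the last, or omega, carbon of fatty acids and eicosanoids. The members were the 9 genes Cyp4a10, Cyp4a12a, Cyp4a12b, Cyp4a14, Cyp4a31, Cyp4a32, Cyp4f14, Cyp4f15 and Cyp4v3, found by symbol among the 22488 genes of each count table, with 8 of them also matched by Entrez identifier. RNA was sequenced from the livers of male wild-type C57BL/6 mice aged 6 to 8 weeks, all fasted for 16 h. LPS mice (n = 3 libraries) were injected into the abdominal cavity with 6 mg/kg of lipopolysaccharide, a cell wall component of Gram-negative bacteria that sets off inflammation. The control group (n = 3 libraries) received 200 µl of the salt buffer HBSS by the same route, although another label of these samples reads no treatment. The titles number the libraries of each group by repeat experiment only. Nothing further says that they came from separate mice, so their spread may be technical. How long after injection the livers were taken is not stated in the labels. The LPS libraries held 11488525 to 15437785 counted reads and the control libraries 12577993 to 20282004.

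Omega-hydroxylation is a side route of fatty acid breakdown. The alcohol made by a Cyp4 enzyme in the endoplasmic reticulum is oxidised to an aldehyde and then to a dicarboxylic acid, which is shortened in peroxisomes. Electrons for the first step come from the P450 reductase Por and from cytochrome b5. In mouse liver, Cyp4a10 and Cyp4a14 are classic targets of the fatty acid receptor PPAR-alpha and are induced by fasting, whereas Cyp4a12a is male-biased and is the main mouse enzyme that turns arachidonic acid into the vasoactive eicosanoid 20-HETE. Cyp4f enzymes hydroxylate leukotriene B4, a neutrophil attractant, and thereby inactivate it.

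The 6 Cyp4a members lie side by side on chromosome 4, between 115299046 and 115621602 of the mouse assembly GRCm38 (mm10). Cyp4f15 (32685627 to 32703352) and Cyp4f14 (32905070 to 32917342) lie on chromosome 17, and Cyp4v3 (45304944 to 45333216) lies on chromosome 8. The stretches of coding sequence below encode the loop that holds the heme iron, and are shown because they make visible which members are near copies of each other. Each has 48 bases and spans a junction between 2 coding exons, and the capitals mark the codon of the cysteine that binds the iron.
Cyp4a10: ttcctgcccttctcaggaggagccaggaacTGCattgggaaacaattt
Cyp4a31: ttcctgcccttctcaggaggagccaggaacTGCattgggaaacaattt
Cyp4a32: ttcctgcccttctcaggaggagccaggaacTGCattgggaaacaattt
Cyp4a12a: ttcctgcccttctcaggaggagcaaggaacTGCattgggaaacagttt
Cyp4a12b: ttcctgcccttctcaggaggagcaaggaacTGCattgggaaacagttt
Cyp4a14: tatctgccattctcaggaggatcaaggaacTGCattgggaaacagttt
Cyp4f14: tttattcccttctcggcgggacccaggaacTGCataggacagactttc
Cyp4f15: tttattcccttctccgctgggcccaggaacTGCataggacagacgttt
Cyp4v3: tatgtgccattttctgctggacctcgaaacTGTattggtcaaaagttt
Cyp4a31 and Cyp4a32 differed from Cyp4a10 at 0 of these bases, Cyp4a12a and Cyp4a12b at 2, Cyp4a14 at 6, Cyp4f14 and Cyp4f15 at 15, and Cyp4v3 at 17.

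Over the whole coding sequence, Cyp4a12a and Cyp4a12b were identical at 98.49% of aligned bases. Cyp4a10 was identical to Cyp4a32 at 97.18% and to Cyp4a31 at 96.59%. Cyp4a14 stood further off, at 76.15% identity to Cyp4a10, and Cyp4f14 and Cyp4f15 shared 82.12%. Such likeness matters for counting, because a read that fits several genes may be given to any of them or dropped, and the treatment of such reads by the authors is not stated in the labels. Of all windows of 100 bases along the annotated transcripts, 35.8% of those of Cyp4a12a and 36.2% of those of Cyp4a12b occurred in the other gene of the pair as well. The share was 20.1% for Cyp4a32 (46.8% at 50 bases and 7.97% at 150), 12.7% for Cyp4a10 and 8.22% for Cyp4a31, all with one another, 5.77% for Cyp4v3, which overlaps Gm45753 on the same strand, and 0% for Cyp4a14, Cyp4f14 and Cyp4f15. Counts of the Cyp4a10, Cyp4a31 and Cyp4a32 group and of the Cyp4a12 pair are therefore uncertain, and these shares set no limit on by how much. In control livers Cyp4a10 had 64800 to 124740 counts and Cyp4a32 1825 to 2378, so a small part of the reads of Cyp4a10 would be large beside those of Cyp4a32. Cyp4a12b also overlaps Gm12837 on the opposite strand.

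Counted by exact matches, most windows of 100 bases in these near copies occurred in no other gene. The 60 coding bases at which Cyp4a32 differed most from Cyp4a10 lie in the second coding exon. They cover chr4:115519640-115519699 in Cyp4a10, chr4:115565020-115565079 in Cyp4a31 and chr4:115602270-115602329 in Cyp4a32, all on the plus strand, and capitals mark bases that differ from Cyp4a10.
Cyp4a10: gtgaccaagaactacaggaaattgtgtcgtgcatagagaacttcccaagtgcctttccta
Cyp4a31: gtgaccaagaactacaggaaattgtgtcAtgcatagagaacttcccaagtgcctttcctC
Cyp4a32: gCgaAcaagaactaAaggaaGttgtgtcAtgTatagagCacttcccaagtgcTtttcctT
Cyp4a32 differed from Cyp4a10 at 9 of these 60 bases and Cyp4a31 at 2.

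Cyp4 RNA made up a far smaller share of the LPS libraries than of the control libraries. All 9 genes passed the filter on low counts, and 7 of them fell while Cyp4a32 and Cyp4f14 did not pass the threshold (adjusted p under 0.05, edgeR's quasi-likelihood test). None of the 9 rose. Over all 12078 tested genes, 31.0% fell and 31.3% rose, 62.3% in all. The median log2 fold change of the 9 was -1.14, against 0.0135 over all tested genes. Together the 9 genes held 0.0789%, 0.0894% and 0.0980% of all counts in LPS replicates 1, 2 and 3, against 1.92%, 2.47% and 2.33% in control replicates 1, 2 and 3. Without Cyp4a14 and Cyp4a10 the share was 0.0735 ± 0.0054% in LPS livers and 0.165 ± 0.0047% in control livers (SD, n = 3 each), so those 2 genes carried most of the difference. In whole tissue, fewer cells of a type and less RNA per cell cannot be told apart.

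**Figure D1:**
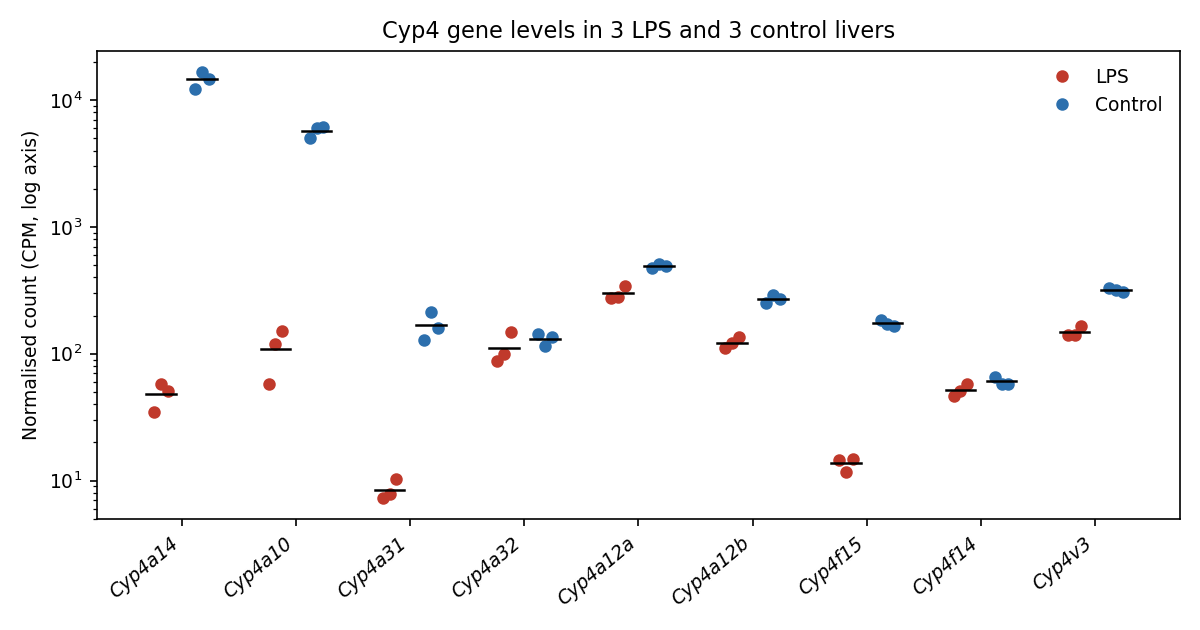
Normalised counts (CPM, log axis) of the 9 Cyp4 genes in each LPS library (red, left) and control library (blue, right), with black lines at the group means (n = 3 each). The LPS and control points lie apart for 7 genes and overlap for Cyp4a32 and Cyp4f14.

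Cyp4a14 fell further than the other 8. Its normalised counts were 35.0, 57.8 and 50.9 CPM (counts scaled to a common library size) in LPS replicates 1, 2 and 3, against 12209, 16622 and 14780 CPM in control replicates 1, 2 and 3. All LPS values lay far below all control values. The log2 fold change was -8.24 (SE 0.26, adjusted p = 2.526e-11), a level 303-fold lower in LPS livers. The LPS value rested on 411 to 822 counts per library, so depth was not a limit, and leaving out any 1 library gave -8.40 to -8.08.

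Cyp4a10, also a fasting-induced hydroxylase of long-chain fatty acids, had 58.2, 119 and 151 CPM in LPS replicates 1, 2 and 3, against 5049, 6064 and 6093 CPM in the controls. The log2 fold change was -5.71 (SE 0.31, adjusted p = 2.703e-09), or 52.3-fold lower. The LPS libraries differed among themselves more for Cyp4a10 than for other members, with replicate 1 the lowest. Cyp4a31, its neighbour and near copy, had 7.33, 7.87 and 10.3 CPM in LPS livers, against 129, 213 and 160 CPM in control livers. Its log2 fold change was -4.30 (SE 0.21, adjusted p = 1.016e-09).

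Cyp4a32, the third gene of this near-identical group, did not follow the other two. It had 88.3, 99.0 and 148 CPM in LPS replicates 1, 2 and 3, against 142, 116 and 136 CPM in control replicates 1, 2 and 3. The groups overlapped, with LPS replicate 3 above all controls and the other LPS libraries below them. The log2 fold change was -0.23 (SE 0.17, 95% interval -0.60 to 0.15, adjusted p = 0.267). LPS replicate 3 decided this outcome, since without it the log2 fold change was -0.47 (adjusted p = 0.00924), a fall that passed the threshold. That library had the lowest scaling factor of the 6, at 0.909. With no such factors (library totals only) Cyp4a32 had -0.31 (adjusted p = 0.0912) and with the size factors of DESeq2 -0.23 (adjusted p = 0.257), so neither scaling gave a call. Even the lower end of the interval is far from the -5.71 of Cyp4a10.

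Counts of the neighbours within a library show the same contrast without any scaling between libraries. There were 1.52, 0.831 and 0.979 counts of Cyp4a32 for each count of Cyp4a10 in LPS replicates 1, 2 and 3, against 0.0282, 0.0191 and 0.0223 in control replicates 1, 2 and 3. Cyp4a32 thus stood near the level of Cyp4a10 in LPS livers, and in LPS replicate 1 it had 1036 counts where Cyp4a10 had 683. Cyp4a31 had 0.0826 counts for each count of Cyp4a10 in LPS livers and 0.0287 in control livers (geometric means), and Cyp4a14 had 0.461 and 2.52. Each of the 5 ratios examined (these 3, Cyp4a12b over Cyp4a12a and Cyp4f15 over Cyp4f14) kept its LPS and control libraries apart. The exact permutation test gave p = 0.1 for each (2-sided, adjusted p = 0.1), the smallest p that 3 against 3 libraries allow. If the 3 near copies are counted as 1 gene, the log2 fold change is -4.74 (adjusted p = 1.061e-09), and Cyp4a10 holds most of the control counts of that sum.

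The Cyp4a12 pair fell by much less. Cyp4a12a, the 20-HETE synthase, had 273, 282 and 342 CPM in LPS livers, against 470, 507 and 490 CPM in control livers. Its log2 fold change was -0.71 (SE 0.13, adjusted p = 3.061e-04). Cyp4a12b had 111, 122 and 135 CPM in LPS livers, against 250, 291 and 269 CPM in control livers, which is -1.14 on the log2 scale (SE 0.13, adjusted p = 3.493e-06). The groups did not overlap for either gene. There were 0.406, 0.431 and 0.395 counts of Cyp4a12b for each count of Cyp4a12a in LPS livers, against 0.532, 0.574 and 0.549 in control livers. Since they share 35.8% and 36.2% of their 100-base windows, the 2 values are not fully separate measurements.

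The 2 Cyp4f members, both on chromosome 17, differed from each other. Cyp4f15 had 14.7, 11.7 and 14.7 CPM in LPS livers, against 185, 171 and 166 CPM in control livers. All LPS values lay below all control values, by 12.7-fold between the means (log2 -3.67, SE 0.14, adjusted p = 1.742e-10). Cyp4f14, a leukotriene B4 hydroxylase, had 46.1, 50.9 and 57.8 CPM in LPS livers, against 66.0, 57.7 and 57.7 CPM in control livers. The Cyp4f14 values overlapped, and its log2 fold change was -0.23 (SE 0.13, 95% interval -0.50 to 0.05, adjusted p = 0.139). Scaled by library totals alone, the same gene passed the threshold (-0.30, adjusted p = 0.0491). Within a library there were 0.318, 0.229 and 0.254 counts of Cyp4f15 for each count of Cyp4f14 in LPS livers, against 2.81, 2.96 and 2.88 in control livers.

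Cyp4v3 is the mouse counterpart of human CYP4V2, a fatty acid omega-hydroxylase whose loss in people causes Bietti crystalline dystrophy of the retina. It had 139, 141 and 167 CPM in LPS livers, against 328, 317 and 309 CPM in control livers. The groups lay apart, and the log2 fold change was -1.09 (SE 0.12, adjusted p = 4.029e-06). In all, the LPS and control libraries lay apart for 7 of the 9 genes, where 67.4% of all tested genes did so.

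**Figure D2:**
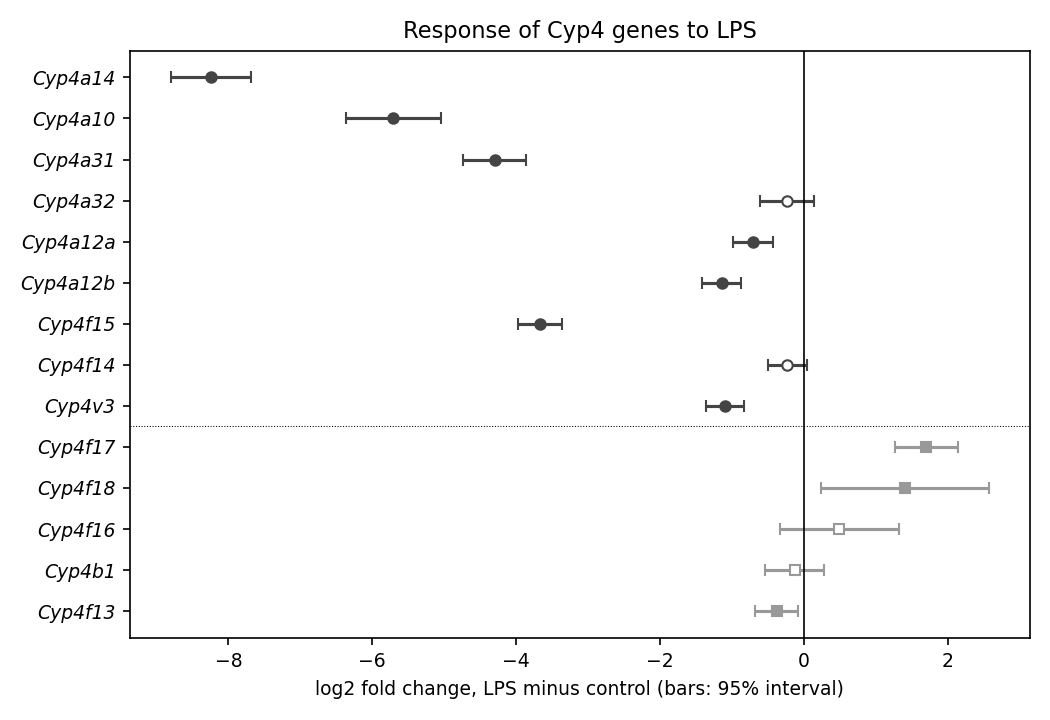
Log2 fold changes (LPS minus control, points) with 95% intervals (bars) for the 9 Cyp4 genes (circles, above the dotted line) and the 5 other Cyp4 genes that were tested (grey squares). Open symbols did not pass the threshold. The values run from -8.24 for Cyp4a14 to 1.70 for Cyp4f17.

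The order of the 9 genes was rearranged between the groups. Per kilobase of annotated exon, Cyp4a14 led in control livers with 5589 ± 852 CPM per kb, followed by Cyp4a10 with 2719 ± 282, Cyp4a12a with 202 ± 7.70 and Cyp4a12b with 113 ± 8.57 (SD, n = 3). These 4 did not overlap. Cyp4a32 (85.4 CPM per kb), Cyp4v3 (83.5), Cyp4f15 (76.2) and Cyp4a31 (66.7) followed, each overlapping the next, and Cyp4f14 was lowest with 25.0. In LPS livers Cyp4a12a led with 124 ± 15.6 CPM per kb, apart from all others, and Cyp4a32 was next with 72.8 ± 20.8. Cyp4a10 (52.0 ± 22.4) ran from 27.6 to 71.8 CPM per kb and overlapped Cyp4a32, Cyp4a12b (51.2 ± 5.11) and Cyp4v3. Cyp4v3 had 39.1 CPM per kb, Cyp4f14 21.3 and Cyp4a14 18.4, the last 2 overlapping, and Cyp4f15 (5.99) and Cyp4a31 (3.38) were lowest. The annotated exons of Cyp4a32 total 1536 bases and those of Cyp4a10 2109, because hardly any untranslated sequence is annotated for Cyp4a32, so its level per kb may be set too high. All levels per kb rest on exon lengths from GENCODE M21. The annotation used for counting is not stated in the labels, so the order of genes at near levels may differ under other lengths.

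As a share of the counts of the 9 genes, Cyp4a14 and Cyp4a10 made up 5.24 ± 1.07% and 11.7 ± 3.58% in LPS livers, against 66.3 ± 1.75% and 26.3 ± 1.21% in control livers (SD, n = 3). Cyp4a12a made up 32.9 ± 2.06% in LPS livers and 2.25 ± 0.216% in control livers, and Cyp4v3 16.4 ± 1.40% and 1.47 ± 0.236%. The share of a gene rises here when the others fall more, so that Cyp4a12a and Cyp4v3 gained share while their levels fell.

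**Figure D3:**
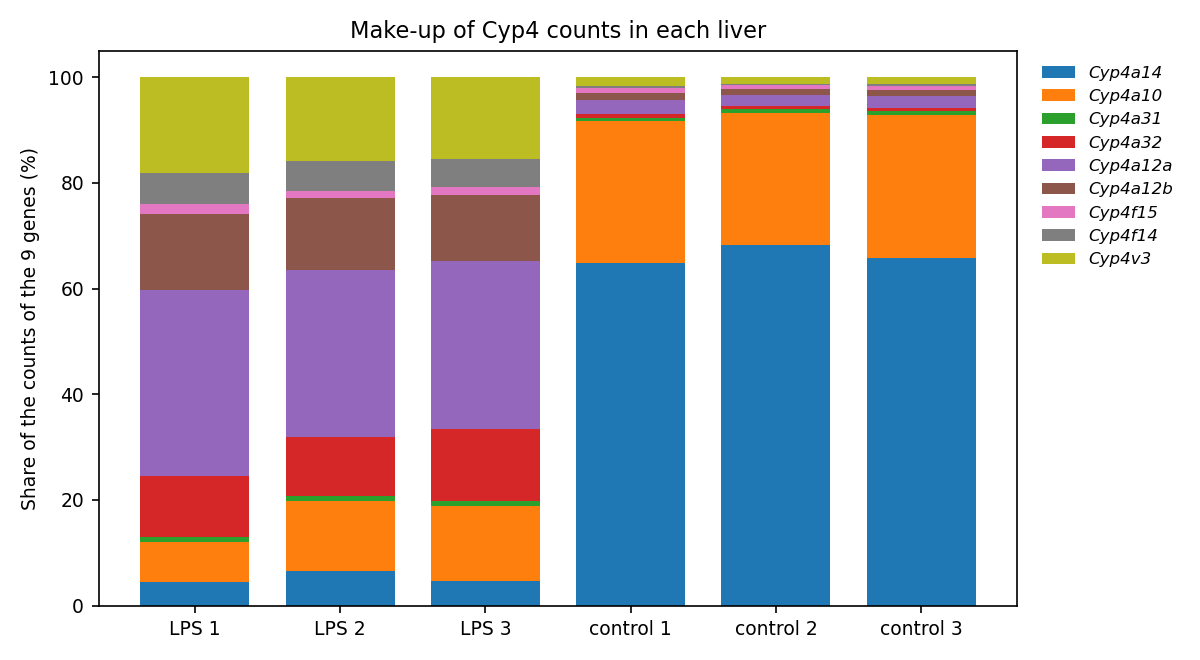
Make-up of the summed counts of the 9 Cyp4 genes in each library, LPS on the left and control on the right, as a percent of that sum (not corrected for gene length). Cyp4a14 and Cyp4a10 fill most of each control bar, and Cyp4a12a is the largest part of each LPS bar, at 31.7 to 35.3%.

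Of the 11 other Cyp4 genes in the tables, 5 passed the filter on low counts, 2 rose, 1 fell and 2 did not pass the threshold. Among all tested genes 31.3% rose and 31.0% fell. Cyp4f17 had 17.8, 27.4 and 24.6 CPM in LPS livers, against 8.65, 6.90 and 6.02 CPM in control livers, and rose by 1.70 on the log2 scale (SE 0.20, adjusted p = 7.101e-06). All its LPS values were above all its control values. Cyp4f18, the leukotriene-hydroxylating form of neutrophils, had 1.27 ± 0.133 CPM in LPS livers and 0.459 ± 0.195 in control livers, from 14 to 20 and 4 to 14 counts per library, and its rise was 1.41 on the log2 scale (SE 0.54, adjusted p = 0.0362). This call ended without LPS replicate 1 (1.43), LPS replicate 2 (1.46), LPS replicate 3 (1.33), control replicate 1 (1.22) or control replicate 3 (1.27), with DESeq2 (1.44) and with no filter (1.38). Neutrophil markers rose in the same livers, and their part in it was not tested. Cyp4f13, with 46.6 ± 4.91 CPM in LPS livers and 60.5 ± 8.93 CPM in control livers, fell (-0.38, SE 0.14, adjusted p = 0.0290), which no longer passed without LPS replicate 2 (-0.31), LPS replicate 3 (-0.35) or control replicate 1 (-0.26). Cyp4b1 (-0.13) and Cyp4f16 (0.49) did not pass, and Cyp4f16 did without control replicate 1 (0.98). Cyp4a29, Cyp4a30b, Cyp4f37 and Cyp4f40 had no count in any of the 6 libraries.

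The genes that act before and after the Cyp4 step were mostly lower too, where 31.0% of all tested genes fell and 31.3% rose. Of 5 genes listed for P450 electron donors and partners 4 fell and 0 rose, with a median log2 fold change of -0.71. Cytochrome b5, Cyb5a, had 424 ± 43.7 CPM in LPS livers and 817 ± 46.5 CPM in control livers (-0.94, adjusted p = 2.642e-05), its outer mitochondrial relative Cyb5b fell (-1.05), and so did the heme-binding P450 partner Pgrmc1 (-0.71). The reductase Por had 254, 286 and 368 CPM in LPS livers, against 530, 426 and 487 CPM in control livers (-0.67, SE 0.15, adjusted p = 0.00173). Of 5 genes for the alcohol and aldehyde steps 4 fell and 1 rose, with a median of -1.02. The largest difference among them was in Aldh3a2, the fatty aldehyde dehydrogenase that completes the dicarboxylic acid, with 36.2, 26.3 and 26.8 CPM in LPS livers, against 573, 737 and 828 CPM in control livers (-4.58, SE 0.19, adjusted p = 3.107e-10). The alcohol dehydrogenases Adh4 (-1.81) and Adh1 (-1.02) fell, whereas Adh7 rose (66.1 ± 16.7 CPM in LPS livers and 17.9 ± 2.02 CPM in control livers, 1.88, SE 0.18, adjusted p = 6.434e-07).

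Of 20 genes for the peroxisomal oxidation of dicarboxylic acids 17 fell and 1 rose, with a median log2 fold change of -1.54. Among all tested genes 31.0% fell and 31.3% rose. Ehhadh, the bifunctional enzyme required for shortening dicarboxylic acids, had 336, 606 and 728 CPM in LPS livers, against 4575, 8809 and 8141 CPM in control livers (-3.69, SE 0.30, adjusted p = 1.525e-07). Replicate 1 was the lowest of its group in both, as it was for Cyp4a14 and Cyp4a10. Among control livers, replicate 1 was instead the highest for Cyp4a32, Cyp4f14, Cyp4f15 and Cyp4v3. The thiolase Acaa1b fell (-4.03), as did the acyl-CoA synthetase Acsl1 (-3.53), the dienoyl-CoA reductase Decr2 (-2.46) and the peroxisomal importer Abcd3 (-1.48). The riser was Nudt7, a peroxisomal coenzyme A diphosphatase (1.00), named after its value was seen.

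PPAR-alpha, the receptor behind the fasting induction of Cyp4a10 and Cyp4a14, was not lower at the RNA level. Ppara had 101, 103 and 131 CPM in LPS livers, against 93.9, 86.6 and 78.3 CPM in control livers (0.37, SE 0.14, adjusted p = 0.0276). The call ended when libraries were scaled by totals alone (0.30), and without LPS replicate 3 (0.25), control replicate 2 (0.35) or control replicate 3 (0.29). Its partner Rxra was lower (-0.33, SE 0.13, adjusted p = 0.0456), which no longer passed without LPS replicate 1 (-0.24), LPS replicate 2 (-0.38), control replicate 1 (-0.29) or control replicate 3 (-0.35). Of 12 genes of PPAR-alpha and its cofactors 5 fell and 1 rose, with a median of -0.16. Over all tested genes, 31.0% fell and 31.3% rose. Those of the list that fell included the coactivator Ppargc1a (-1.94), the corepressor Ncor1 (-0.71) and the orphan receptor Nr0b2 (-5.80, from 2 to 16 counts per LPS library). Creb3l3, a hepatocyte transcription factor that acts with PPAR-alpha, had a log2 fold change of -0.10 (adjusted p = 0.551). Of 20 other PPAR-alpha targets 16 fell and 3 rose, with a median of -1.10. Fabp1, which carries fatty acids in the cytosol (-3.09), and Acadm, a mitochondrial acyl-CoA dehydrogenase (-2.43), fell by far less than Cyp4a14. The risers Pdk4 (4.19, and 4.84 without control replicate 3), Plin2 (1.82) and Angptl4 (0.99) were named after their values were seen.

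**Figure D4:**
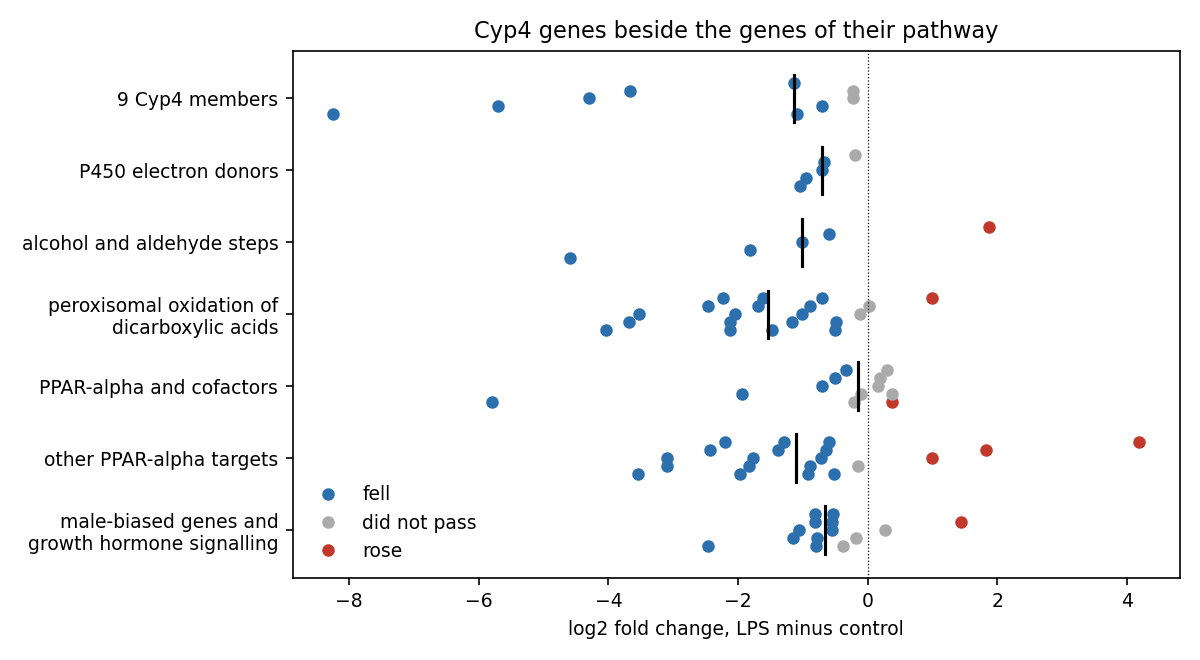
Log2 fold changes (LPS minus control) of the tested genes of each list, 1 point per gene, with a black line at the median of the list. Genes that fell are blue, those that rose red and those that did not pass the threshold grey. Cyp4a14 is the leftmost point of the plot at -8.24, and the list of PPAR-alpha and its cofactors has its median at -0.16.

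Genes that share the male bias of Cyp4a12a were examined as well. Of 14 male-biased genes and genes of growth hormone signalling, 10 fell and 1 rose, with a median log2 fold change of -0.66, and 6 fell without LPS replicate 2, while 2 rose without control replicate 1. The fatty acid elongase Elovl3 fell (-2.47, SE 0.14), and so did the growth hormone receptor Ghr (-1.16, SE 0.13) and its signal transducer Stat5b (-0.78, SE 0.12), next to the -0.71 of Cyp4a12a. The urinary protein Mup7 was lower too (-0.53, adjusted p = 0.0176), a call that ended without LPS replicate 2 (-0.43), control replicate 1 (-0.44) or control replicate 2 (-0.46). Among 7 tested genes that make, sense or break down leukotriene B4, 3 rose and 1 fell, with a median of -0.37, and 1 rose without LPS replicate 3. Of all tested genes, 31.3% rose and 31.0% fell. The 5-lipoxygenase gene Alox5 had 1.26 ± 0.573 CPM in LPS livers and 0.0844 ± 0.0787 in control livers (3.83, adjusted p = 0.00107), from 4 counts over the control libraries, and without LPS replicate 3 it did not pass the filter on low counts. Its activating protein Alox5ap rose (1.95). The receptor Ltb4r1 (1.40, adjusted p = 0.0302) and the hydrolase Lta4h (-0.37, adjusted p = 0.0323) lost their calls without any of 4 libraries each, namely LPS replicates 2 and 3 with control replicates 2 and 3 for Ltb4r1 (1.03 to 1.44) and LPS replicates 1 and 3 with control replicates 1 and 3 for Lta4h (-0.38 to -0.32). Lta4h did so with DESeq2 too (-0.38).

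Cytochrome P450 genes outside the Cyp4 family fell widely. Of 50 tested, 37 fell and 5 rose, with a median log2 fold change of -1.19, close to the -1.14 of the 9 Cyp4 genes. For all tested genes the shares were 31.0% that fell and 31.3% that rose. The largest falls among those with at least 10 CPM in control livers were in Cyp7a1, which starts the making of bile acids from cholesterol (-7.27), and Cyp3a25 (-3.51). Cyp7a1 rested on 4, 26 and 8 counts in LPS replicates 1, 2 and 3, and stood at -8.27 without LPS replicate 2 and at -6.60 without control replicate 1. The genes whose pattern over the 6 libraries was most like that of Cyp4a14, by the root mean square difference of log2 values centred on the control mean, were Cyp7a1 (1.60), Etnppl (1.99) and Gm4952 (2.19). A difference of 1 is a factor of 2. This measure adds 1 CPM before the logarithm, which shrinks the falls of genes as low as Cyp7a1 in LPS livers (0.913 CPM). By log2 fold change, Cyp4a14 ranked 4 of 12078 tested genes in size of fall. For Cyp4a12a the nearest genes were the corepressor Ncor1 (0.033), the urea cycle enzyme Otc (0.046) and the complex I assembly factor Ndufaf1 (0.046). For Cyp4f14 they were Ncaph2 (0.043), Hps5 (0.043) and Eprs (0.048).

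Markers of cell types moved in the same libraries, in which 31.0% of all tested genes fell and 31.3% rose. Of 10 hepatocyte markers 8 fell and 1 rose, with a summed level of 72102 to 98390 CPM in LPS livers and 111804 to 125058 CPM in control livers. All 6 tested neutrophil markers rose, to a sum of 193 to 232 CPM in LPS livers against 4.05 to 7.73 CPM in control livers, and 5 of 6 monocyte markers rose (68.8 to 80.5 CPM in LPS livers against 5.30 to 9.72 CPM in control livers). Of 6 Kupffer cell markers 5 fell and 1 rose, summing to 48.3 to 80.1 CPM in LPS livers and 209 to 225 CPM in control livers. Sinusoidal endothelial and stellate markers each had 4 of 6 that fell and 1 that rose, with sums of 132 to 223 and 51.6 to 112 CPM in LPS livers against 213 to 239 and 81.8 to 86.3 CPM in control livers. Of 4 tested cholangiocyte markers 3 rose and 1 fell (117 to 138 CPM in LPS livers and 19.4 to 32.2 CPM in control livers), and the 1 tested T and NK cell marker did not pass. No marker was at 0 in a whole group. The hepatocyte sum was mostly albumin, Alb, with 54429 CPM in LPS livers and 79284 CPM in control livers (means). The median log2 fold change of the 10 hepatocyte markers was -0.59, with values from -3.64 for the urea cycle enzyme Cps1 to 1.39 for Tat. The part of cell composition in the Cyp4 differences was not tested.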

How the data were processed

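The authors deposited raw counts per gene for each of the 6 libraries, whole numbers without normalization in fields of 8 characters. Per the submitters' processing notes, bcl2fastq 2.0, HISAT2, StringTie, DESeq2, limma and build mm10 were used. The counting tool, annotation, strand setting and treatment of reads that fit several genes are not stated in the labels. Genes were named by Entrez identifier (20722) or deposited symbol (1766). LPS and control livers were compared in R 4.3.3 with edgeR 4.0.16 (TMM scaling, filterByExpr with minimum count 10 and minimum total 15, quasi-likelihood F test, 2-sided), with Benjamini-Hochberg adjustment over all 12078 tested genes and a threshold of 0.05. Normalised counts (CPM) use TMM-scaled library totals. The biological coefficient of variation was 16.4%. The method was tested on simulated data. Coding sequences, exon lengths and positions come from GENCODE M21 (GRCm38) and were aligned with Biopython 1.88.

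The members and gene lists were chosen with earlier results of these data known. Of the 12 other Cyp4 genes listed, 11 were in the tables. Named were the 9 members, the tested other Cyp4 genes, in each list the 3 genes of lowest adjusted p and the one of highest mean CPM, 8 pathway genes by name, the 2 largest falls of other P450 genes and the 3 genes most like each of 3 members (on log2 CPM plus 1). Any further gene was named after its value was seen. Some genes that this rule names are not reported here. Nothing beyond the labels says that libraries came from separate mice, so a p value speaks for the spread among these 6 samples, which may be technical. Alternatives were DESeq2 1.42.0, its size factors, library totals, no filter, a block for the replicate number, each library left out and near-identical genes added together. No value column was left unused.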

Additional observations from a re-analysis of the deposited data

How the results depend on the processing

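Over the alternatives run for the 9 Cyp4 genes, 101 of 104 fold changes kept their direction and their side of the threshold, 0 reversed and 3 newly passed. In this tally, the fit of Cyp4a10, Cyp4a31 and Cyp4a32 added together is repeated for each of its genes. So is that of the Cyp4a12 pair. Cyp4f14 passed by library totals only (-0.30). Cyp4a32 passed without LPS replicate 3 (-0.47), and its range with a library left out was -0.47 to -0.11. Added to Cyp4a10 and Cyp4a31 as 1 gene it stood at -4.74. Of 538 fold changes of other named genes, 34 lost their call, 4 gained one and 0 reversed, under alternatives chosen after seeing the data. The scalings moved the median of all genes by less than 0.1. The number of genes that rose or fell moved by over 1.5 times in 23 of 396 cases, all in lists with 0 to 3 such genes or in the male-biased list.

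In their titles, LPS and control samples alike carry a repeat experiment number from 1 to 3, without saying whether equal numbers share a day, litter or batch. Deviations of equally numbered LPS and control libraries correlated at -7.45e-04, 0.104 and 0.0352. With the replicate block, 7546 genes were called against 7528 without it, and Cyp4a32 had -0.26 (adjusted p = 0.141). No call of the 9 genes changed, and Cyp4f18 lost its call (1.46).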
